A study of Homo sapiens with 6 samples.

Results

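MDA-MB231 cells carrying siL2, the siRNA that left less of the LSD1 transcript than the other LSD1 siRNA of the study did, were compared with cells carrying a control siRNA. The comparison took every gene that passed a count filter, which kept 13322 of 23368 gene symbols, in 4 of the 6 libraries of the series. MDA-MB231 is an established human triple-negative breast cancer line. All groups shared the line, growth in DMEM with 10% fetal calf serum, and transfection with the reagent interferin. The 3 groups of 2 libraries each were a control siRNA, siL1 and siL2, and siL1 was used only as the reference that a change had to differ from before it was described as particular to siL2. What limits the model is that siL2 is 1 siRNA and that the sequences of the siRNAs and the time of harvest are not given in the sources used here. Nothing in the labels states that libraries of a group were grown as independent cultures, and if they were not, the tests capture technical spread alone.

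LSD1, encoded by KDM1A, is a histone demethylase that removes methyl groups from lysine residues of histone H3 and works in complexes with CoREST proteins and histone deacetylases. Cholesterol is made from acetyl-CoA through mevalonate and squalene, and the genes of that route are switched on together by the SREBP transcription factors when membrane sterol is low. Ribosomes are built from RNA made largely by RNA polymerase I and from the proteins of a large and a small subunit. An siRNA cuts the transcript it matches in full, and can also lower transcripts that match only the short seed at its 5′ end, mostly through their 3′ untranslated regions (3′ UTRs).

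Most of the large falls particular to siL2 shared the word GTTACAA in the 3′ UTR, and 9 of these sites are shown because the values below are described by it. The word came from an earlier scan of these same data, so its presence is a description and no independent support, and a match does not show that anything binds there. The windows are on the coding strand of GRCh38, in the longest 3′ UTR that GENCODE v29 annotates for each gene. The counts were made on another build, hg19, so gene symbols alone joined them to these sites. The window of SRPR (SRPRA in GENCODE) is chr11:126263709-126263735 on the minus strand. SRM is at chr1:11054733-11054759 and RBBP9 at chr20:18489606-18489632, both on the minus strand. CD3EAP is at chr19:45409836-45409862, ISOC1 at chr5:129113168-129113194, PPPDE1 (DESI2 in GENCODE) at chr1:244708974-244709000 and SH3BGRL2 at chr6:79699994-79700020, all on the plus strand. CA12 is at chr15:63324598-63324624 and USP46 at chr4:52595763-52595789, both on the minus strand. Capitals mark the word, with 10 bases on each side, 5′ to 3′.
SRPR: gcctaatcatGTTACAAtcactgccca
SRM: ccaaccaagtGTTACAAgccccagaat
RBBP9: ttcaatctaaGTTACAAatagcacttc
CD3EAP: tatccattgaGTTACAAacaatccagt
ISOC1: ccagcatttaGTTACAAacgtcaaagg
PPPDE1: gggctatcatGTTACAAcattgaaata
SH3BGRL2: tgcagaatcaGTTACAAacatcacagt
CA12: gctaggcaaaGTTACAAgtgacctaat
USP46: ttgactgcaaGTTACAAagttttaaga

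The knockdown was checked on KDM1A, whose level is given in CPM, the read count of a gene scaled to the size of its library. KDM1A had 158 and 165 CPM under the control siRNA, 27.7 and 28.3 under siL1 and 17.3 and 18.1 under siL2, without overlap between the groups. It fell by 3.19 on the log2 scale (SE 0.0567, adjusted p = 2.16e-12, edgeR's quasi-likelihood test with Benjamini-Hochberg adjustment over all 13322 genes, as everywhere below). The siL2 libraries were also below the siL1 libraries, by 0.66 (adjusted p = 4.36e-06). The KDM1A 3′ UTR held 0 GTTACAA sites. The libraries contained between 22047738 and 26765079 counts, between 15624 and 16065 genes had a count, and none stood apart in depth.

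With siL2, 3006 genes (22.6%) were higher and 3100 (23.3%) lower than in the control at an adjusted p under 0.05. Most changes were small: 287 genes (2.15%) were at least 2-fold higher and 172 (1.29%) at least 2-fold lower. Between siL2 and siL1, 3088 genes (23.2%) were higher and 3152 (23.7%) lower. With siL1, 3289 (24.7%) were higher and 3423 (25.7%) lower than in the control. A gene was counted as particular to siL2 when it passed in the same direction against the control and against siL1, which held for 1304 genes (9.79%) that were higher and 1448 (10.9%) that were lower. Both tests use the siL2 libraries, so these are counts that the rule fixes. The median log2 change of the particular genes was 0.37 for those higher and -0.41 for those lower. At least 2-fold from both other groups were 91 genes that were lower and 32 that were higher, the latter 15 with DESeq2. The largest rises and falls below were ranked among called genes that averaged 5 CPM or more and whose groups did not overlap, which leaves out larger changes in weakly expressed genes. Without that limit, 24 called genes lay at least 2 log2 units above the control and 12 at least 2 below it.

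The largest falls above that CPM limit besides KDM1A were in genes of different roles. SPNS2, which exports sphingosine-1-phosphate, stood at 99.3 and 97.8 CPM in the control, 45.6 and 41.5 with siL1, and 21.3 and 18 with siL2 (log2 change -2.32, SE 0.0754, adjusted p = 2.11e-10). ISOC1, an isochorismatase-domain protein, stood at 65.5 and 65.9 CPM in the control, 43.9 and 41 with siL1, and 14 and 14.4 with siL2 (-2.21, SE 0.0667, adjusted p = 1.32e-10). RBBP9, a serine hydrolase that binds the retinoblastoma protein, had 69.3 and 70 CPM in the control, 50 and 49.2 with siL1 and 16 and 14.7 with siL2 (-2.18, SE 0.0645, adjusted p = 1.24e-10). For these genes the siL1 libraries lay between the control and the siL2 libraries, and no groups overlapped. MMP1, the interstitial collagenase, was low throughout, at 9.12 and 12.9 CPM in the control, 6.25 and 7.73 with siL1, and 2.23 and 3.53 with siL2 (-1.95, SE 0.214, adjusted p = 1.05e-05).

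In a further set the siL1 libraries were near or above the control while the siL2 libraries were far below it. SRM, the synthase that makes spermidine, stood at 147 and 145 CPM in the control, 138 and 143 with siL1, and 38.9 and 38.2 with siL2 (-1.92, SE 0.047, adjusted p = 2.35e-11). CD3EAP, a subunit of RNA polymerase I, stood at 17.8 and 16.4, 15.2 and 15.4, and 4.57 and 4.95 CPM in the same order (-1.84, SE 0.108, adjusted p = 4.04e-08). SRPR, a subunit of the receptor that docks ribosomes at the endoplasmic reticulum, stood at 221 and 215 CPM in the control, 246 and 255 with siL1, and 62.7 and 63.2 with siL2 (-1.79, SE 0.0429, adjusted p = 2.27e-11). SRPR rose with siL1 (0.20, adjusted p = 0.00089), whereas SRM (-0.05, adjusted p = 0.335) and CD3EAP (-0.16, adjusted p = 0.166) did not pass with it. SH3BGRL2, of a family related to SH3-binding glutamate-rich protein, stood at 27 and 26.6, 29.5 and 28.9, and 9.78 and 7.3 CPM (-1.64, adjusted p = 1.19e-07). PPPDE1, of a peptidase family that acts on SUMO, stood at 116 and 119.6, 126 and 131, and 39.6 and 38.9 CPM (-1.59, adjusted p = 1.34e-10).

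The other genes among the 15 largest falls also fell with siL1, by less. They were the Wnt receptor FZD5 (-1.76 with siL2, -1.08 with siL1), the homeobox factor ONECUT2 (-1.65 and -1.09), the corepressor subunit TBL1X (-1.64 and -0.34), the sialomucin PODXL2 (-1.61 and -0.68) and the splicing factor HNRNPA1 (-1.59 and -0.26). HNRNPA1 has near-identical copies in the genome that the counting could have split, so its value is uncertain. All 14 falls besides KDM1A passed against siL1 as well, with log2 differences from -0.56 for ONECUT2 to -1.99 for SRPR. With siL1 against the control, 9 of the 14 fell, 2 rose (SRPR and PPPDE1) and 3 did not pass (SRM, CD3EAP and SH3BGRL2). GTTACAA was in the 3′ UTR of 10 of the 14, and the 4 without it were SPNS2, MMP1, TBL1X and PODXL2, each of which fell with siL1 too. Of those that held it, ISOC1, RBBP9, FZD5, ONECUT2 and HNRNPA1 also fell with siL1.

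**Figure D1:**
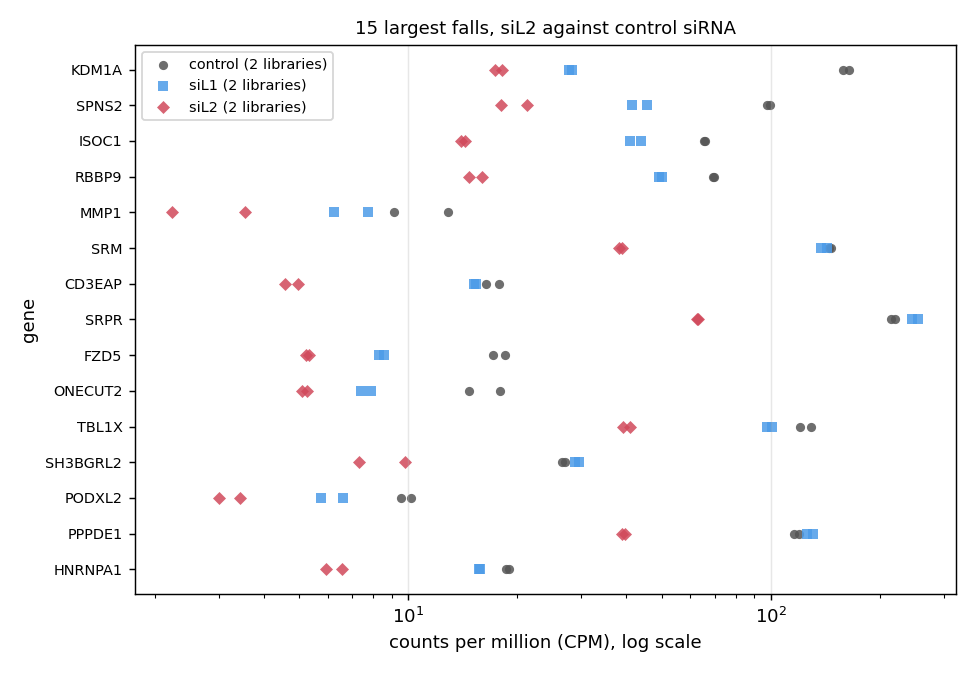
CPM of each library (log axis) for the 15 genes with the largest falls between siL2 and the control siRNA among those that averaged 5 CPM or more, with 2 points per group. The siL2 libraries lie below all others for every gene shown, and for SRPR, SH3BGRL2 and PPPDE1 the siL1 libraries lie above the control.

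The 12 falls furthest from siL1 included 6 genes outside the 15 largest falls against the control. CA12, a carbonic anhydrase of the cell surface, stood at 6.99 and 6.94 CPM in the control, 17.4 and 18.4 with siL1, and 4.5 and 4.14 with siL2. It fell by 0.69 on the log2 scale against the control (SE 0.127, adjusted p = 0.000675) and differed by -2.05 from siL1 (adjusted p = 2.46e-08), with which it rose. RASSF5, a Ras-binding adaptor, stood at 8.63 and 7.7, 12.4 and 11.7, and 3.35 and 2.76 CPM (-1.41 against the control, adjusted p = 5.77e-06). The zinc transporter SLC39A6 stood at 72 and 67.5, 110.4 and 107, and 34.9 and 34.1 CPM (-1.01, adjusted p = 2.13e-08). These 3 genes had the same order, with both siL1 libraries highest and both siL2 libraries lowest. LPHN2, an adhesion G protein-coupled receptor (-1.35), the long noncoding RNA UCA1 (-1.37) and the deubiquitinase USP46 (-1.07) had that order too. The other genes of the 12 were SRPR, SRM, SH3BGRL2, PPPDE1, RBBP9 and CD3EAP. GTTACAA was in 11 of the 11 that had an annotated 3′ UTR, beside 9.48% of all tested genes with a 3′ UTR. UCA1 had no 3′ UTR to search.

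Over all genes, the share that held the word was larger where the fall was larger. A 3′ UTR was matched for 12197 of the 13322 genes (91.6%), and 1156 of them held GTTACAA. The search took the longest annotated 3′ UTR of each gene, and whether these cells express that form was not tested. It was in 48 of the 84 searched genes at least 2-fold lower than both other groups (57.1%), in 351 of the 1404 searched genes particular to siL2 and lower (25.0%), and in 70 of 1234 of those particular and higher (5.67%). Among genes at least 2-fold lower than the control, 46.7% held it with siL2 and 12.9% with siL1. By number of sites, the median log2 change with siL2 was 0.00 for 11041 genes with 0 sites, -0.12 for 1018 genes with 1 site and -0.23 for 138 genes with 2 or more. With siL1 the same medians were -0.01, 0.02 and 0.05. The share of genes lower with siL2 was 22.5%, 41.7% and 50.7% in that order. Genes with more sites also had longer 3′ UTRs (median 1258, 3136 and 5072 bases), and the part of length in these shares was not tested. The other word of the earlier scan, TACATTT or ACATTTA, was in 12 of the 15 largest rises (80.0%, beside 34.9% of all). Of genes with 0, 1 and 2 or more of its sites, 19.5%, 24.6% and 37.1% were higher with siL2. Their median differences of siL2 from siL1 were -0.010, 0.004 and -0.001. Their median 3′ UTR lengths were 904.5, 2105.5 and 3480 bases.

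**Figure D2:**
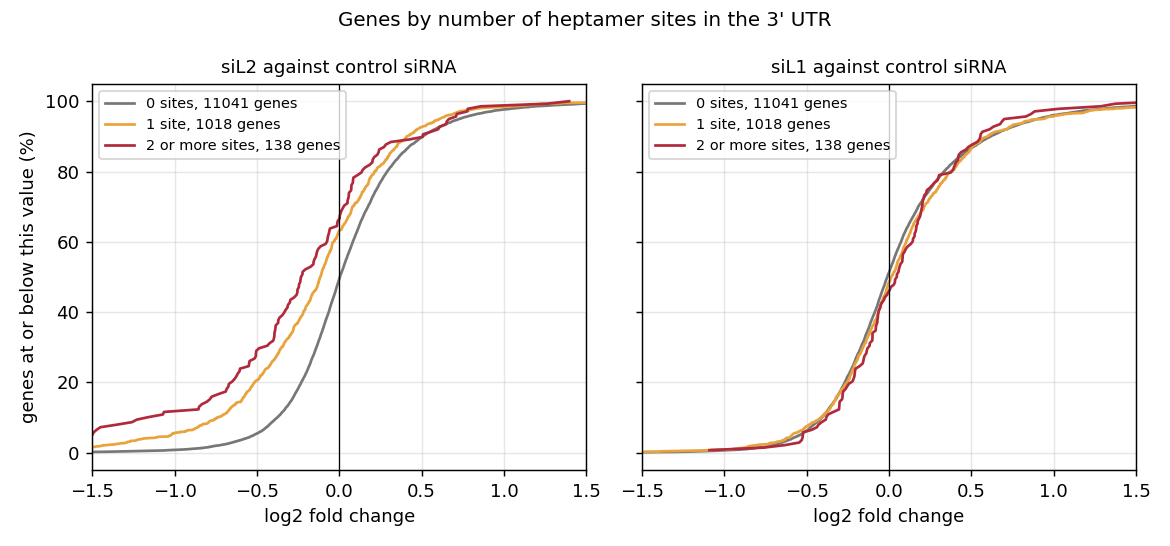
Cumulative share of genes (%) against the log2 fold change against the control siRNA, with siL2 (left) and siL1 (right), for genes with 0, 1 and 2 or more copies of GTTACAA in the 3′ UTR. With siL2 the curves with sites lie to the left of the curve with 0 sites at falls (medians -0.12 and -0.23 beside 0.00), and with siL1 the medians lie between -0.01 and 0.05.

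A count added after seeing the data left out the genes that hold GTTACAA. It kept 101 of the 172 genes at least 2-fold lower than the control, and 43 of the 91 at least 2-fold lower than both other groups. Of the genes at least 2-fold higher it kept 270 of 287 against the control and 31 of 32 against both. GTTACAA was taken from an earlier scan of these same data. The larger loss among falls is therefore a description, and no test of GTTACAA or support for it.

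Among the 15 largest rises with siL2 above the limit of 5 CPM, 5 were higher and 3 lower than with siL1. CDK6, a G1 cyclin-dependent kinase, stood at 132 and 126 CPM in the control, 209 and 227 with siL1, and 399.5 and 425 with siL2 (1.67, SE 0.049, adjusted p = 1.24e-10). The pseudokinase gene TRIB2 stood at 13.1 and 14.5, 28 and 30.3, and 43.2 and 43.8 CPM (1.66, adjusted p = 6.02e-09). CCNG2, an atypical cyclin, stood at 6.04 and 7.23, 14.3 and 14.3, and 23.8 and 22.8 CPM (1.81, adjusted p = 3e-08). In these 3 genes siL2 exceeded siL1 without overlap. The first of them by size, the phospholipid scramblase family gene PLSCR4 (2.62), was slightly above that with siL1 (difference 0.25, adjusted p = 0.0436). The membrane protein TMEM64 (2.23), the receptor GPR17 (2.02) and the granzyme B inhibitor SERPINB9 (1.93) rose as well but were lower with siL2 than with siL1 (differences -0.39, -0.55 and -0.30). TMEM87B, UHMK1, KIAA1324, STYK1, TP53INP1, ACLY and EFR3A rose by between 1.63 and 2.25 and did not pass against siL1. GTTACAA was in 1 of the 15, UHMK1.

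The 12 rises furthest from siL1 held 10 genes that fell with siL1. LIPH, a lipase that makes lysophosphatidic acid, stood at 6.76 and 5.97 CPM in the control, 5.82 and 5.31 with siL1, and 21.4 and 20 with siL2 (1.70, SE 0.108, adjusted p = 7.78e-08). SYT1, a calcium sensor of vesicle release, stood at 3.54 and 4.53, 3.65 and 3.76, and 10.4 and 12 CPM (1.47, adjusted p = 3.8e-06). LIPH and SYT1 did not pass with siL1. NEAT1, the long noncoding RNA of paraspeckles, stood at 83.8 and 108 CPM in the control, 53.8 and 77.2 with siL1, and 193 and 231 with siL2 (1.14, SE 0.136, adjusted p = 2.16e-05). RG9MTD2, a tRNA methyltransferase, stood at 6.54 and 7.62, 3.74 and 3.84, and 18.6 and 19.1 CPM (1.41, adjusted p = 3.98e-07), with the widest gap from siL1 (2.31). Both genes had the siL1 libraries lowest and the siL2 libraries highest. The secreted protein gene FAM3C rose by 1.07 and EREG, a ligand of the epidermal growth factor receptor, by 0.98. The anaphase-promoting complex subunit CDC26 (1.02), the phospholipase PAFAH2 (0.73), the actin-binding XIRP2 (0.47) and the noncoding LOC100499467 (0.68) and LINC00472 (0.51) also rose. XIRP2 lost its call against the control without control replicate 1 or siL2 replicate 2 (adjusted p up to 0.0653). GTTACAA was in 0 of the 9 of the 12 with a 3′ UTR.

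**Figure D3:**
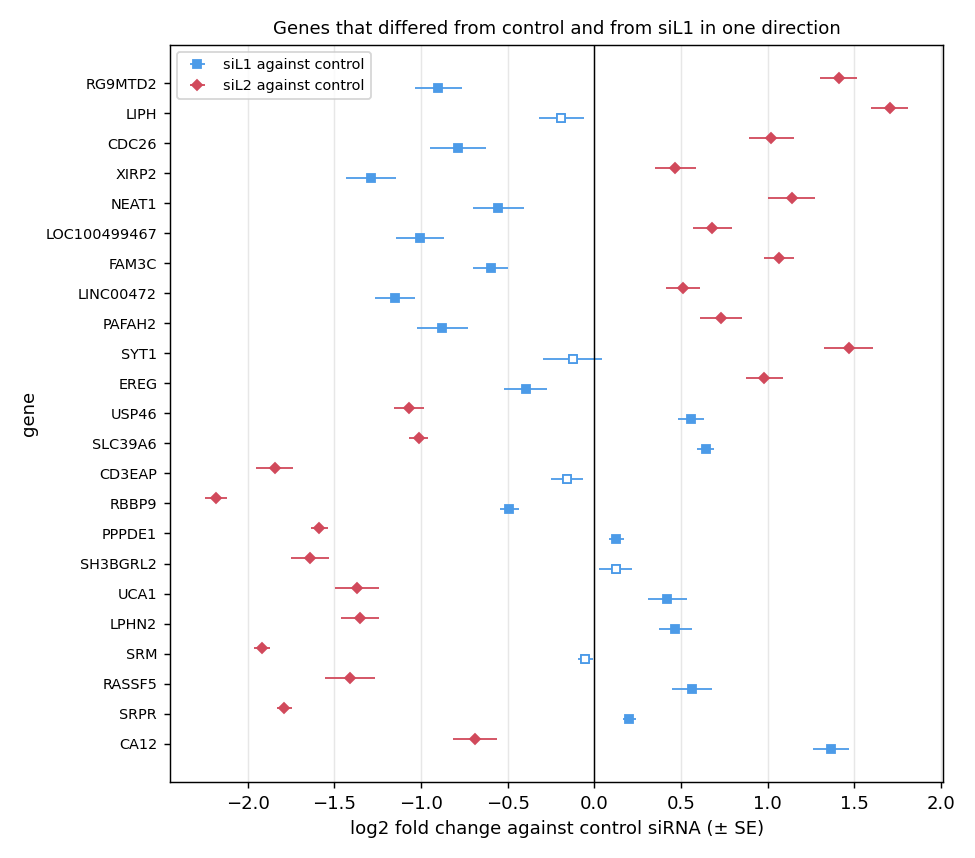
Log2 fold change against the control siRNA with its SE, for 11 rises and 12 falls among those furthest from siL1, shown for siL1 and siL2, with open symbols where the test was not passed. The siRNAs lie on opposite sides of 0 for most genes, and RBBP9, SRM and CD3EAP are the falls whose siL1 value is below 0.

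Sterol synthesis genes rose with siL2. Of 23 tested, 17 rose (73.9%, beside 22.6% of all genes) and 2 fell, with a median log2 change of 0.33 beside 0.00 over all genes. Against siL1, 14 were higher (60.9%, beside 23.2% of all genes) and 4 lower (17.4%, beside 23.7%). Of the 23, 12 were particular to siL2 and higher (52.2%, beside 9.79%) and 2 particular and lower (8.70%, beside 10.9%). With siL1 against the control 9 rose (39.1%, beside 24.7%) and 3 fell (13.0%, beside 25.7%). The summed level of the list was 0.337% and 0.344% of the counts in the control libraries, 0.383% and 0.387% with siL1, and 0.430% and 0.431% with siL2. The groups did not overlap. The list was chosen with earlier results of these data known, and 1 of its 23 genes held GTTACAA (SC5DL).

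In the mevalonate arm, HMGCS1, which makes HMG-CoA, had 264 and 302 CPM in the control, 287 and 332 with siL1, and 439 and 487 with siL2 (0.71, SE 0.0728, adjusted p = 5.8e-06). Mevalonate kinase MVK stood at 45.9 and 46, 46.7 and 47.8, and 64.1 and 65.3 CPM (0.49, adjusted p = 8.77e-06). The decarboxylase MVD (0.39), the isomerase IDI1 (0.43) and the farnesyl diphosphate synthase FDPS (0.59) rose with siL2 and did not pass with siL1. FDPS stood at 125 and 125, 133 and 126, and 192 and 183 CPM, so that the siL1 libraries were close to the control. The kinase PMVK (0.33) and the thiolase ACAT2 (0.33) rose with both siRNAs, without a difference past the threshold between them. The geranylgeranyl diphosphate synthase GGPS1, which leads to protein prenylation, rose by 0.47, a call that ended without control replicate 1 (adjusted p 0.0786).

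From squalene on, the rises were less even. MSMO1, which oxidizes methyl groups of the sterol ring, stood at 72.7 and 69.6 CPM in the control, 85.7 and 89.8 with siL1, and 128 and 122 with siL2 (0.81, SE 0.0491, adjusted p = 5.29e-08), the largest change of the list. LBR, the lamin B receptor that also reduces the sterol ring, stood at 187 and 184, 280.4 and 269, and 305 and 304 CPM (0.71), so that most of its rise was shared with siL1. HSD17B7 (0.56), lanosterol synthase LSS (0.42) and the isomerase EBP (0.40) rose, and each was higher than with siL1. Squalene synthase FDFT1 (0.16) rose by less. SQLE, the squalene epoxidase, stood at 137 and 137 CPM in the control and 149.9 and 149 with siL2 (0.13, adjusted p = 0.0178), a call that ended when either control or either siL2 library was left out (adjusted p up to 0.0844). CYP51A1, the lanosterol demethylase, fell from 118 and 120.3 to 104 and 103 CPM (-0.21, adjusted p = 0.00164). SC5DL, a desaturase near the end of the route, fell from 60.8 and 67.7 to 52.1 and 56.9 CPM (-0.24, adjusted p = 0.00967) and rose with siL1 to 76.7 and 81.5 CPM. Its call with siL2 ended without control replicate 2 or siL2 replicate 1 (adjusted p up to 0.121). DHCR7 (0.07), NSDHL (0.16), TM7SF2 (0.23) and IDI2 (-0.09) did not pass against the control.

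**Figure D4:**
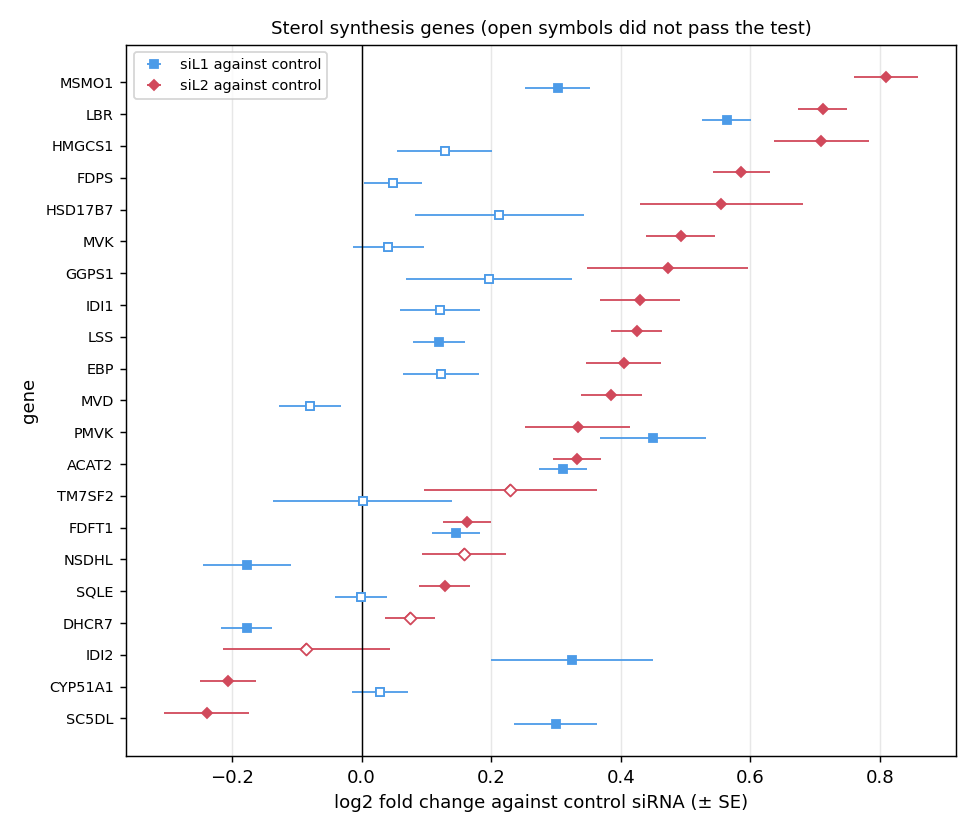
Log2 fold change against the control siRNA with its SE for 21 of the 23 sterol synthesis genes, for siL1 and siL2, open where the test was not passed. The siL2 values run from -0.24 (SC5DL) to 0.81 (MSMO1), with 15 filled siL2 symbols to the right of 0.

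Of 23 tested genes that sense, take up or move sterol, 13 rose with siL2 (56.5%, beside 22.6% of all genes) and 4 fell, with a median of 0.17. The 4 that fell became 2 with DESeq2 or without siL2 replicate 1, and 1 without siL2 replicate 2. Against siL1, 8 were higher and 3 lower, and 6 were particular to siL2 and higher (26.1%, beside 9.79%). With siL1 against the control 10 rose (43.5%, beside 24.7%) and 4 fell. STARD4, a sterol carrier of the cytosol, stood at 69.5 and 71.8 CPM in the control, 87 and 96.6 with siL1, and 121 and 125 with siL2 (0.80, SE 0.0548, adjusted p = 1.52e-07). INSIG1, which holds SREBP precursors in the endoplasmic reticulum, stood at 173 and 195, 208 and 256, and 265 and 309 CPM (0.64, adjusted p = 8.25e-05). In both genes the siL2 libraries were the highest. The ubiquitin ligase MYLIP (0.53), NPC1, which exports cholesterol from lysosomes (0.40), SOAT1, which esterifies cholesterol (0.17), and SREBF1, which encodes an SREBP (0.24), were also particular to siL2. The SREBF1 call ended with DESeq2 and without control replicate 1 or siL2 replicate 2 (adjusted p up to 0.350). SREBF2, which encodes the main factor for sterol synthesis genes, rose by 0.13 (adjusted p = 0.00975), and the escort protein gene SCAP fell by 0.20. Both calls ended without siL2 replicate 2 (adjusted p 0.0635 and 0.0765). The exporter ABCA1 fell from 3.68 and 6.13 to 2.45 and 3.57 CPM (-0.72, adjusted p = 0.0357), a call that ended with DESeq2 and without control replicate 2 or siL2 replicate 1 (adjusted p up to 0.441).

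Promoters were searched from 250 bases before to 50 after each RefSeq start on GRCh38.p14, on both strands, for 10088 tested genes that matched. A gene was counted when the window of any of its starts held the word, and genes differ in their number of starts, which was not adjusted for. The box CCAAT was counted in 14 of 18 sterol synthesis genes (77.8%) and in 10 of 18 genes that sense, take up or move sterol (55.6%). It was counted in 17 of 25 fatty acid genes (68.0%) and in 43.2% of all. A sterol regulatory element, searched as TCACNCCAC, was in 0 of the 18 sterol synthesis genes and in 1.45% of all. The 0 says only that these letters were not in these windows. In the fatty acid list 2 of 25 genes held the element, ACSL1 (at 1 of its 5 starts) and MID1IP1. Both fell (-0.34 and -0.30), the latter call ending without control replicate 2 or siL2 replicate 1. SREBF2, which rose by 0.13, held such a match at chr22:41832962-41832990 on the plus strand, shown with the element in capitals because SREBF2 encodes the factor that reads it.
SREBF2: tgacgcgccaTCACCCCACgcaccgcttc

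Fatty acid genes were divided. Of 27 tested, 12 rose (44.4%, beside 22.6%) and 6 fell (22.2%, beside 23.3%), with a median of 0.12, and 5 were particular in each direction (18.5%, beside 9.79% higher and 10.9% lower). ACLY, which makes cytosolic acetyl-CoA, stood at 198 and 211 CPM in the control, 602 and 599.5 with siL1, and 639.8 and 627 with siL2 (1.63), without a difference past the threshold between the siRNAs (0.08, adjusted p = 0.107). The desaturase SCD stood at 1707 and 1719 CPM in the control, 1800.5 and 1837 with siL1, and 2379.6 and 2321 with siL2 (0.46, SE 0.0292, adjusted p = 8.47e-08). The elongases ELOVL5 (0.89) and ELOVL1 (0.37) rose too, and were higher than with siL1. FASN, the fatty acid synthase, stood at 650.3 and 593 CPM in the control and 656 and 651 with siL2 and did not pass (0.07, adjusted p = 0.198), while it fell with siL1 (-0.30). FASN passed when control replicate 1 was left out. The largest falls were in another desaturase, SCD5, from 34.4 and 30.5 to 18.7 and 13.2 CPM (-1.02, SE 0.144, adjusted p = 9.03e-05), and in ACSL4, which activates arachidonate, from 317 and 306 to 177 and 179 CPM (-0.81, SE 0.0384, adjusted p = 7.16e-09). SCD5, ACSL4 and the dehydratase PTPLAD1 (-0.45) each held GTTACAA, as did 6 of the 27 genes of the list.

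Cytosolic ribosomal protein genes fell by a small amount. Of 46 tested large-subunit genes 22 fell (47.8%, beside 23.3% of all genes) and 1 rose, and of 31 small-subunit genes 18 fell (58.1%), while the others did not pass. The median log2 change was -0.12 in both, beside 0.00 over all genes. Against siL1, 22 large-subunit genes were lower (47.8%, beside 23.7% of all genes) and 2 higher, and 16 small-subunit genes were lower (51.6%). With siL1 against the control 6 of the 77 fell (7.79%, beside 25.7% of all genes) and 2 rose. Of the 77, 29 were particular to siL2 and lower (37.7%, beside 10.9%) and 1 particular and higher. The summed level of the 79 listed genes was 2.44% and 2.52% of the counts in the control, 2.45% and 2.48% with siL1, and 2.25% and 2.31% with siL2, so the siL2 libraries were the lowest. The number of calls rests on single libraries: without siL2 replicate 1, 10 large-subunit and 9 small-subunit genes were lower, and without control replicate 2, 16 and 11. With the replicate number as a block in the fit, the count moved the other way, to 35 large-subunit genes lower. The medians were below 0 under every alternative run, from -0.14 to -0.08 for the large and from -0.16 to -0.10 for the small subunit.

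RPL6, of the large subunit, changed most and stood at 296 and 315 CPM in the control, 279 and 290.0 with siL1 and 191 and 197 with siL2 (-0.66, SE 0.0422, adjusted p = 8.55e-08). RPL17, which lines the exit of the peptide tunnel, stood at 17.2 and 20, 20.4 and 20.6, and 12.5 and 13 CPM (-0.54, adjusted p = 0.00045). RPS3, a protein of the mRNA entry site, stood at 928 and 954, 906 and 891, and 757 and 756 CPM (-0.31, SE 0.0315, adjusted p = 4.7e-06). In these 3 genes the siL2 libraries lay below all others. RPS3 held 1 GTTACAA site, while RPL6 had no 3′ UTR in the reference. RPL9 fell by 0.35, a call that ended with DESeq2 and without control replicate 1 or siL2 replicate 1 (adjusted p up to 0.0905), and the other called falls were smaller than that of RPS3. RPL13A was the exception, at 176 and 193 CPM in the control, 154 and 161 with siL1, and 201 and 207 with siL2 (0.14, adjusted p = 0.0263), a call that ended without control replicate 1 or siL2 replicate 2 (adjusted p up to 0.244). Most ribosomal protein genes have processed copies in the genome, and RPL21 had 0 counts in all but 1 library, so the counting may have split or dropped reads of single members. GTTACAA was in 2 of 40 large-subunit and 1 of 28 small-subunit genes with a 3′ UTR.

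**Figure D5:**
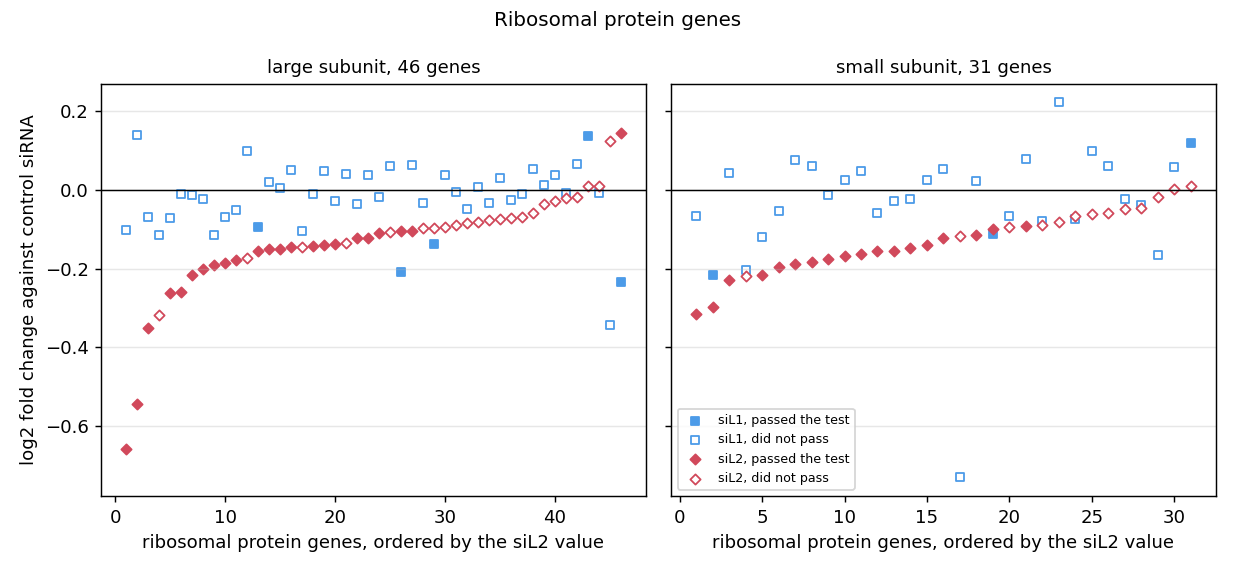
Log2 fold change against the control siRNA of the 46 large-subunit and 31 small-subunit ribosomal protein genes, ordered by the siL2 value, for siL1 and siL2, filled where the test was passed. Most siL2 values lie a little below 0 (median -0.12), RPL6 is the lowest at -0.66, and RPL13A is the only filled siL2 symbol above 0.

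Genes that assemble ribosomes fell with both siRNAs. Of 58 tested ribosome biogenesis factors, 54 fell with siL2 (93.1%, beside 23.3% of all genes) and 1 rose (median -0.33), and 44 fell with siL1 (75.9%, beside 25.7%, median -0.27). Of the 58, 17 were particular to siL2 and lower (29.3%, beside 10.9%). SDAD1, a factor for the large subunit, stood at 85.8 and 86.9 CPM in the control, 70.8 and 75.7 with siL1, and 43.5 and 47.5 with siL2 (-0.93, adjusted p = 7.78e-08). RRS1, another assembly factor, fell more with siL1, at 130.3 and 123, 53.3 and 54.9, and 81.1 and 81.8 CPM, and was higher with siL2 than with siL1 (0.59, adjusted p = 1.28e-06). Of 20 RNA polymerase I genes 13 fell with siL2 (65.0%, beside 23.3% of all genes) and 1 rose, and 11 fell with siL1 (55.0%, beside 25.7%). Of the 20, 5 were particular to siL2 and lower (25.0%, beside 10.9%). Beside CD3EAP these included TWISTNB, another subunit of the polymerase, at 133 and 131, 113 and 119, and 72.5 and 67.9 CPM (-0.91, SE 0.0492, adjusted p = 1.84e-08). TWISTNB held 0 GTTACAA sites. The initiation factor RRN3 was the member that rose (0.40, adjusted p = 0.000211).

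Translation factors and mitochondrial ribosomal proteins also held falls, with both siRNAs. With siL1, 20 of 45 translation factors fell (44.4%, beside 25.7% of all genes). Of 45 translation factors 25 fell with siL2 (55.6%, beside 23.3% of all genes), or fewer without siL2 replicate 1. Of the 45, 10 were particular to siL2 and lower (22.2%, beside 10.9%) and 0 particular and higher. GSPT1, a translation release factor, stood at 427 and 441 CPM in the control, 384 and 391 with siL1, and 200.4 and 197 with siL2 (-1.13, SE 0.0364, adjusted p = 2.08e-10), and held 1 GTTACAA site. Of 77 mitochondrial ribosomal protein genes 36 fell (46.8%) and 8 rose with siL2, and 38 fell with siL1 (49.4%). In that list 6 were particular and lower and 7 particular and higher, no larger shares than the 10.9% and 9.79% of all genes. MRPL49 fell most, at 144 and 155, 143 and 140.3, and 61.4 and 62 CPM (-1.28, SE 0.0487, adjusted p = 1.08e-09), with 0 sites and siL1 libraries near the control.

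The pathways around the largest falls were mixed. In the polyamine list 5 of 16 rose (31.2%, beside 22.6% of all genes; 3 without siL2 replicate 2) and 4 fell (25.0%, beside 23.3%), so neither share stood far from that of all genes. Besides SRM, ODC1, the first enzyme of polyamine synthesis, fell, at 386 and 384 CPM in the control, 251 and 246 with siL1, and 232 and 233 with siL2 (-0.73, adjusted p = 7.48e-09), and so did the decarboxylase AMD1 (-0.43). Both fell with siL1 as well (-0.63 and -0.29), and the differences between the siRNAs were small (-0.10 and -0.13). Spermine synthase SMS did not pass (0.02, adjusted p = 0.668). The catabolic oxidases PAOX (0.63) and SMOX (0.50), the antizyme OAZ2 (0.56) and the arginase ARG2 (0.58) rose. The SMOX call ended without control replicate 1 or siL2 replicate 2 (adjusted p up to 0.165).

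In the list of protein targeting to the endoplasmic reticulum 5 of 25 rose with siL2 against the control (20.0%, beside 22.6% of all genes). In the same comparison 7 fell (28.0%, beside 23.3%), and both shares were near those of all genes. Against siL1 more were lower, with 12 lower (48%, beside 23.7%) and 4 higher. With siL1 against the control 12 rose (48%, beside 24.7%) and 4 fell. Of the 25, 6 were particular to siL2 and lower (24%, beside 10.9%), and 3 particular and higher. The partner of SRPR in the receptor, SRPRB, stood at 120.3 and 124 CPM in the control, 125 and 126 with siL1, and 78.4 and 75.6 with siL2 (-0.66, SE 0.0444, adjusted p = 1.24e-07), and held 0 GTTACAA sites. Subunits of the signal recognition particle moved less: SRP68 (-0.31) and SRP72 (-0.24) fell, while SRP54 (-0.02), SRP19 (-0.06), SRP14 (-0.06) and SRP9 (0.06) did not pass. The channel subunit SEC61A1 stood at 625 and 621 CPM in the control and 632 and 614 with siL2 (adjusted p = 0.988). The peptidase subunit SEC11C fell by 0.77, and the translocation factors TRAM1 (0.71) and SEC63 (0.68) rose.

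In the sphingosine-1-phosphate list SPNS2 was the only one of 12 tested members that fell, with 1 more without the count filter or without siL2 replicate 2. SPHK2, which makes the lipid, rose by 0.26 (adjusted p = 0.0107), a call that ended with DESeq2 and without control replicate 2 or siL2 replicate 1 (adjusted p up to 0.0688), and fell with siL1 (-0.47). SGPP1, which dephosphorylates it, rose by 0.29. Among 13 Wnt receptor genes 5 fell (38.5%, beside 23.3% of all genes; 3 without siL2 replicate 2) and 5 rose (38.5%, beside 22.6%). FZD5 stood at 18.5 and 17.2 CPM in the control, 8.54 and 8.3 with siL1, and 5.21 and 5.31 with siL2, and FZD8, another frizzled receptor, at 4.45 and 4.1, 3.4 and 3.27, and 1.64 and 1.74 CPM (-1.34, SE 0.177, adjusted p = 5.04e-05). In both, the groups did not overlap. The frizzled genes FZD6 (0.56), FZD4 (0.47) and FZD7 (0.42) rose. Of 11 tested matrix metalloproteinases 2 fell, MMP1 among them, and 4 rose (36.4%, beside 22.6% of all genes). The rises became 2 with DESeq2 or without either siL2 library, and the falls 1 with DESeq2, without control replicate 1 or without siL2 replicate 2. Of the rises MMP19 was the largest, from 2.18 and 2.45 to 7.25 and 7.38 CPM (1.65, adjusted p = 2.53e-06).

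Of 14 tested partners of LSD1, 5 fell (35.7%, beside 23.3% of all genes) and 2 rose (14.3%, beside 22.6%), the latter 1 without control replicate 2 or siL2 replicate 1. RCOR1, the CoREST subunit that links LSD1 to the nucleosome, stood at 161 and 160.1 CPM in the control, 169.7 and 169 with siL1, and 118 and 111 with siL2 (-0.49, SE 0.0429, adjusted p = 1.59e-06). RCOR1 was particular to siL2 and held 1 GTTACAA site. The corepressor CTBP1 fell by 0.26, particular to siL2 as well, while the deacetylases HDAC1 (0.22) and HDAC2 (-0.22) moved in opposite directions. Of 38 neuronal genes listed for REST and CoREST 11 passed the count filter. Of these 11, 3 rose (27.3%, beside 22.6% of all genes) and 4 fell (36.4%, beside 23.3%). SYT1 rose, and the granule protein gene SCG2 (-1.07) and the mitochondrial GDAP1 (-0.72) fell, neither with a difference past the threshold from siL1.

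Cell cycle genes were mostly higher with siL2 than with siL1. Of 60 G1/S and replication genes 18 were higher (30.0%, beside 22.6% of all genes) and 13 lower (21.7%, beside 23.3%) than the control (median 0.00), the latter 7 with DESeq2 or without siL2 replicate 1. Against siL1, 41 of the 60 were higher (68.3%, beside 23.2%) and 5 lower, and with siL1 39 were lower than the control (65.0%, beside 25.7%). Of 60 G2/M genes 9 were higher (15%) and 11 lower (18.3%) than the control (median 0.00). The 9 became 5 without siL2 replicate 2, and the 11 became 7 with DESeq2, 5 without control replicate 2 and 4 without siL2 replicate 1. Against siL1, 46 of these genes were higher (76.7%) and 1 lower, and with siL1 45 were lower than the control (75.0%). The mitotic kinesin KIF20A stood at 207 and 209 CPM in the control, 154 and 147 with siL1, and 237 and 247 with siL2 (0.22, adjusted p = 0.00063). RPA2, a subunit of the complex that binds single-stranded DNA, was the largest fall of these lists, at 59.3 and 61.6, 48.1 and 51.4, and 26.3 and 25.3 CPM (-1.23, SE 0.0626, adjusted p = 1.15e-08), and held 2 GTTACAA sites. Of 43 matrix protein genes 20 rose (46.5%, beside 22.6% of all genes) and 6 fell (14.0%) against the control. With siL1 32 of them rose (74.4%, beside 24.7%, median 0.50), and 24 were lower (55.8%, beside 23.7%) and 5 higher with siL2 than with siL1. Tenascin, encoded by TNC, was above both, at 20 and 20.3, 31.7 and 36, and 42 and 47.3 CPM (1.15, adjusted p = 2.74e-07).

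Of 42 interferon response genes 16 rose (38.1%, beside 22.6% of all genes) and 6 fell (14.3%, beside 23.3%) with siL2, or 10 and 3 with DESeq2. With siL1 14 rose (33.3%, beside 24.7%) and 5 fell. Against siL1, 11 were higher with siL2 and 12 lower, and 9 were particular and higher (21.4%, beside 9.79%). SAMD9, an antiviral factor, stood at 30.1 and 30.3 CPM in the control, 39.2 and 39.9 with siL1, and 60.4 and 66.2 with siL2 (1.07, adjusted p = 4.65e-08), and the interferon-induced IFI35 at 12.4 and 14.5, 12.7 and 13.4, and 21.2 and 23.8 CPM (0.74, adjusted p = 5.39e-05). For IFI35 the siL1 libraries overlapped the control. Of 43 autophagy and lysosome genes in the list, 20 rose (46.5%) and 5 fell (11.6%) with siL2, and 24 rose with siL1 (55.8%, beside 24.7%), with GABARAPL1, a membrane protein of autophagosomes, at 13.6 and 14.2, 24.1 and 26, and 35.5 and 35.4 CPM (1.35, adjusted p = 3e-08). LAMP1, a lysosomal membrane protein, fell from 320.0 and 309 to 225 and 222 CPM (-0.49). Of 36 ATF4 and unfolded protein genes 7 rose (19.4%) and 11 fell (30.6%), shares near those of all genes, with 3 rises without siL2 replicate 2, and 9 were particular and lower (25.0%, beside 10.9%). EDEM1, which clears misfolded glycoproteins, stood at 279.9 and 274, 409 and 435, and 228 and 209.8 CPM (-0.34, adjusted p = 5.85e-05), lowest with siL2 and highest with siL1.

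The markers of the line were checked in all libraries. The mesenchymal filament VIM stood between 3288 and 3706 CPM, while the estrogen receptor ESR1 was at most 0.0744 CPM and E-cadherin CDH1 at most 0.112, both near 0 counts. Of 10 basal and mesenchymal markers 6 rose (60.0%, beside 22.6% of all genes) and 1 fell with siL2, and of 6 tested luminal markers 4 fell (66.7%, beside 23.3%) and 1 rose, among them the keratin KRT18 from 262 and 268 to 190.2 and 188 CPM (-0.49). The blood markers PTPRC and CD3E stood at 0 to 0.0406 CPM, and of 5 tested blood markers 1 rose, CD68 (0.31). Of 8 tested fibroblast and endothelial markers 4 rose with siL2, a larger share than the 22.6% of all genes, or 2 without control replicate 2. With siL1 against the control 5 of the 8 rose (62.5%, beside 24.7%), with a median of 0.79 beside 0.40 with siL2. All 8 were lower with siL2 than with siL1, 4 of them past the threshold, and 0 were particular to siL2. PDGFRB stood at 0.772 and 0.888 CPM in the control, 6.46 and 7.97 with siL1, and 3.79 and 3.65 with siL2. DCN and LUM had 0 counts in every library. In bulk RNA, fewer cells of a type and less RNA per cell cannot be told apart, and the part of these markers in the other changes was not tested.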

How the data were processed

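RNA of MDA-MB231 cells was isolated with an RNeasy kit and made into Illumina libraries, 2 per group, per the labels' protocols. The authors deposited whole-number read counts per gene symbol. The submitters' processing notes name TopHat 1.3.3, HTSeq, DESeq and the build hg19; the annotation release, strand setting and filters are not given in the sources used here, so reads of overlapping or antisense genes cannot be told apart. The authors' own comparison columns were not used.

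All 6 libraries were fitted together with edgeR 4.0.16 in R 4.3.3 (TMM scaling, genes kept by edgeR's expression filter, quasi-likelihood test, Benjamini-Hochberg adjustment over 13322 genes, threshold 0.05, 3 residual degrees of freedom). In every library 3 counts corresponded to between 0.112 and 0.136 CPM. The steps were tested on simulated data. Members, lists and the 3′ UTR words were chosen with earlier results of these data known. Named genes were KDM1A, the 15 largest rises and falls against the control and the 12 largest particular rises and falls against siL1 (all averaging 5 CPM or more, groups without overlap), all sterol, fatty acid and ribosomal protein genes, and the members of the other lists with the smallest p; a few of them are not reported here but stay in every count. Alternatives were other scalings and filters, DESeq2 1.42.0, limma-voom (limma 3.58.1), a replicate block, only the groups compared, and leaving out each library.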

Additional observations from a re-analysis of the deposited data

Results flagged for a closer look

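Among the rises and falls furthest from siL1, 17 of the genes reported passed against the control in opposite directions with the siRNAs. Their difference between siL2 and siL1 passed edgeR's quasi-likelihood test in the same fit. The rule that picked these genes required that pass and ranked them by this difference, so the pass is no further support. The changes with siL1 and with siL2 are both measured from the same control libraries. Members of other lists also passed in opposite directions, such as SC5DL, SPHK2, KIF20A and EDEM1. Over all 13322 genes, 291 were higher with siL2 and lower with siL1, and 243 were lower with siL2 and higher with siL1.

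Higher with siL2 and lower with siL1 were 9 of these genes, given here by the log2 difference of siL2 from siL1. The tRNA methyltransferase gene RG9MTD2 differed by 2.31, CDC26 by 1.81, XIRP2 by 1.76 and the paraspeckle RNA NEAT1 by 1.69. LOC100499467 differed by 1.69, FAM3C by 1.66, LINC00472 by 1.66 and PAFAH2 by 1.61. EREG differed by 1.38.

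Lower with siL2 and higher with siL1 were the other 8, with log2 differences of -2.05 for CA12, -1.99 for SRPR, -1.97 for RASSF5 and -1.82 for LPHN2. UCA1 differed by -1.79, PPPDE1 by -1.71, SLC39A6 by -1.66 and USP46 by -1.63. Of these 8 genes UCA1 had no 3′ UTR to search, and GTTACAA was in the 3′ UTR of the other 7.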

How the results depend on the processing

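Over 14 other ways of processing the counts, the 30 largest rises and falls against the control kept direction and call in 420 of 420 values, and the 24 particular genes in 334 of 336, the exceptions being XIRP2. Of the 150 sterol, fatty acid and ribosomal protein genes, 1942 of 2098 values kept their call, 112 lost it, 44 gained it and 0 reversed. The particular genes at least 2-fold higher than both groups were 15 with DESeq2 instead of 32. With the replicate block 35 large-subunit ribosomal protein genes were lower instead of 22. Leaving out 1 library gave 10 to 24 large-subunit genes, and 9 to 18 small-subunit genes instead of 18, with 11 without control replicate 2. Without genes holding GTTACAA, an alternative chosen after seeing the data, 101 genes were at least 2-fold lower than the control instead of 172, and 43 at least 2-fold lower than both groups instead of 91. The causes were not tested, except that the last setting has fewer genes by construction. The replicate numbers were not taken as a pairing: only 2 numbers are shared, and no label says what a number marks. Deviations of same-numbered libraries did correlate, at 0.191 (control and siL1), 0.261 (control and siL2) and 0.215 (siL1 and siL2). The main tests do not adjust for any shift that same-numbered libraries share. With 2 libraries per group, genes under a few CPM are limited by counting error.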
